A study of Mus musculus with 6 samples.

Results

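Cytosolic aminoacyl-tRNA synthetases and translation factors were compared between wild type and CTLA-4 KO T cells on Affymetrix arrays. The group was defined by 37 gene symbols, 20 for cytosolic synthetases and 17 for initiation and elongation factors. A gene was measured where the array annotation maps a probe set to that gene alone, and each gene was read from its probe set with the highest mean over the 6 arrays. By this rule 33 of the 37 were measured, 19 synthetases and 14 factors, out of 11990 genes tested in all. Dars, Eif1, Eif2s1 and Eif4g1 were not analysed here, and Mars was found under its newer symbol Mars1. All 33 passed the filter on dim probe sets.

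Both groups of donor cells carried the 5C.C7 receptor transgene, which recognises a peptide of moth cytochrome c (MCC), on a RAG2-/- CD45.1 background. One group was otherwise wild type and the other was also CTLA-4-/-, so it lacked an inhibitory receptor of activated T cells in every cell. Donor cells were moved into B10.A hosts, which are not described as lacking lymphocytes of their own. After MCC peptide and LPS were given, the donor cells were collected by sorting on day 4. There were 3 arrays per genotype, titled as biological replicates, each from 2 µg of total RNA. The sources used here do not state ages, the numbers of donors and hosts behind an array or the sort gate. The p-values therefore describe the variation among these arrays alone, and some of it could be technical.

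Before an amino acid can enter a protein, a synthetase joins it to its tRNA, and each synthetase serves 1 amino acid or, for the glutamyl-prolyl enzyme, a pair of them. Initiation factors then bring the methionyl initiator tRNA and the mRNA to the small ribosomal subunit and find the start codon, and elongation factors move the ribosome along. T cells that have met antigen grow before they divide and raise protein synthesis, and the kinase complex mTORC1, the transcription factor MYC and the stress factor ATF4 are known regulators of these genes.

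The targeted gene, Ctla4, was checked first. Its 3 wild-type intensities were 5332, 4787 and 4587 and its 3 CTLA-4 KO intensities 812, 791 and 784, which was 16.2% of the wild-type mean and in the direction of the labels. Of the T cell markers 9 were measured, none changed without the block, 1 rose and 1 fell with it, and their summed intensity ran from 64577 to 74361 over wild-type arrays and from 69185 to 70346 over CTLA-4 KO arrays. Summed B cell markers (5 genes) reached at most 379 and myeloid markers (8 genes) at most 605 on any array, while NK cell and red cell markers all lay under the dimness filter. Replicate 2 of each genotype had high Xist (14608 and 12599, against at most 107 on the other arrays), so these arrays read as female. The 5' to 3' ratio of the Actb control probe sets, a sign of RNA integrity, was 0.418, 0.41 and 0.584 for wild-type arrays and 0.567, 0.691 and 0.544 for CTLA-4 KO arrays. The labels do not say whether arrays with the same replicate number share donors, hosts or a day. They were treated as pairs because their values deviated together in these data. Values with replicate number as a block are therefore given wherever they change a call. With 3 arrays per genotype the number of arrays limits every value.

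In CTLA-4 KO cells 31 of the 33 genes had a higher mean log2 value than in wild type, but the differences were small and no gene passed the threshold in the fit without a block. Every difference is the CTLA-4 KO mean less the wild-type mean of log2(intensity + 16), and the threshold was a limma p of 0.05 after Benjamini-Hochberg adjustment over all 27022 probe sets kept. The median difference was 0.25 over the 33 genes, against 0.0018 over all 11990 genes, and mean intensities in CTLA-4 KO were 0.901 to 1.55 times those in wild type. Without a block 0 of 33 changed, beside a background of 1.69% of all genes (1.19% higher and 0.5% lower), and of 1.25% of all probe sets. The lowest adjusted p was 0.055. At an unadjusted p under 0.05 there were 15 of the 33, all higher, where 9.42% of all genes were higher and 7.11% lower. With the replicate block 9 of the 33 rose and none fell, where 5.48% of all genes rose and 3.44% fell (8.92% in all, and 8.66% of probe sets). They were the synthetase genes Rars, Vars, Aars, Gars, Farsa and Farsb and the factor genes Eif4ebp1, Eif6 and Eif1a.

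A second count used only the order of the arrays. In 15 of the 33 genes (45.5%) every CTLA-4 KO array was above every wild-type array, against 12.2% of all genes and 14.8% of genes in the brighter 60th-percentile set. In none was every CTLA-4 KO array below in the probe set used, against 10.6% of all genes. Positive differences made up 93.9% of the members, 50.3% of all genes and 54.4% of the brighter set. These shares are descriptions, since the genes were chosen together and are not independent of each other.

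**Figure D1:**
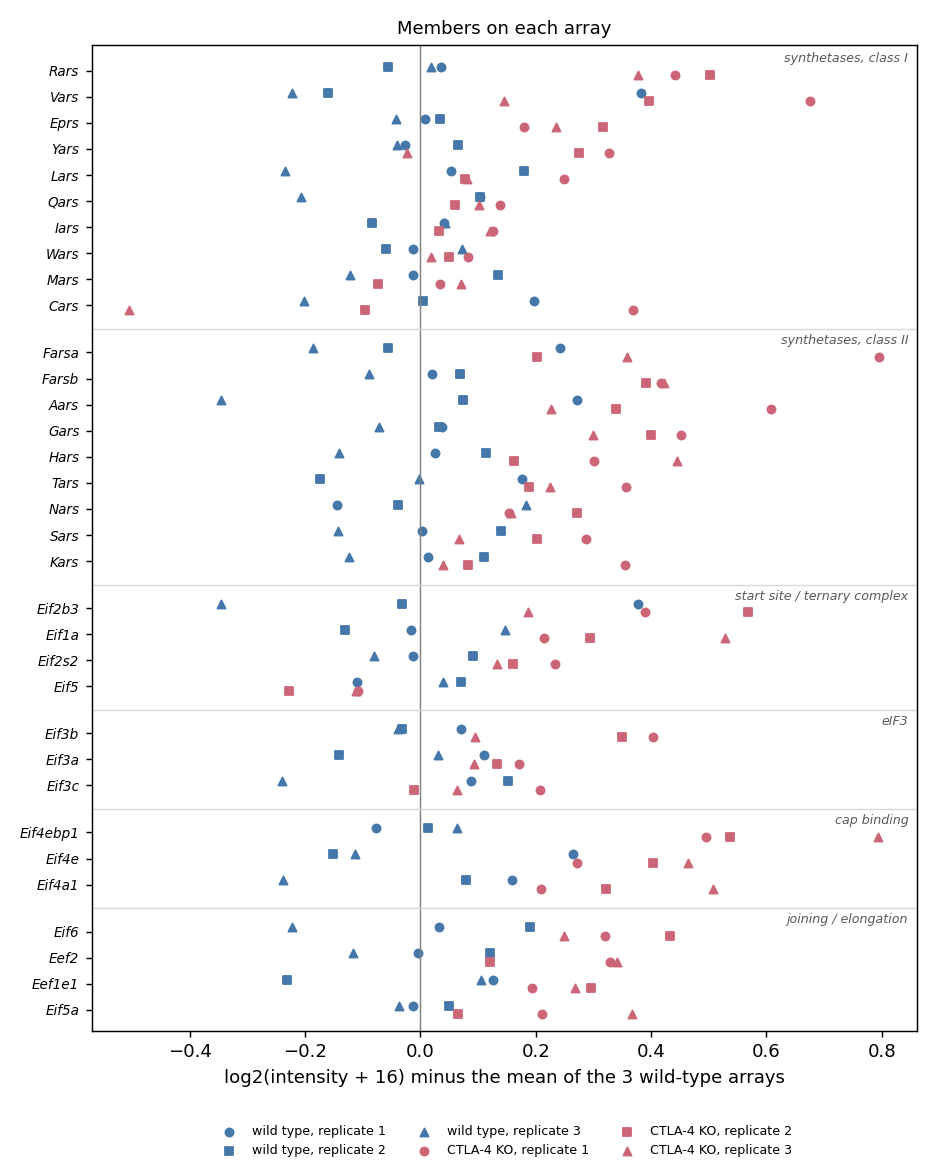
Each row is 1 gene and each point 1 array, as log2(intensity + 16) minus the mean of the 3 wild-type arrays, with blue for wild type, red for CTLA-4 KO and the marker shape for the replicate number. In 15 of the 33 genes all red points lie to the right of all blue points, and wild type replicate 3 (blue triangles) is the lowest wild-type array in 22.

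The class I synthetases, which share a Rossmann-fold catalytic domain, were read by 10 genes with a median difference of 0.12. Eprs was counted here for its glutamyl part, though its prolyl part is of class II. The arginyl enzyme gene Rars stood at 2047, 1919.7 and 2022 on the wild-type arrays and 2716, 2832 and 2597 on the CTLA-4 KO arrays. The CTLA-4 KO arrays were all above the wild-type arrays, with a difference of 0.44 ± 0.10 (SE; adjusted p = 0.0606 without and 0.0112 with the block). Vars, for the valyl enzyme, had 1423, 971 and 929 across the wild-type arrays, against 1746, 1436 and 1203 across the CTLA-4 KO arrays. Here wild type replicate 1 was higher than CTLA-4 KO replicate 3, so the genotypes overlapped, yet every pair differed the same way, by 0.29, 0.56 and 0.37 (0.41 ± 0.18; adjusted p = 0.323 without and 0.0263 with the block). Eprs, for the joint glutamyl and prolyl enzyme, had 3143, 3198 and 3032 on the wild-type arrays and 3541, 3892 and 3678 on the CTLA-4 KO arrays, again with no overlap, at 0.24 ± 0.092 (adjusted p = 0.238 without and 0.102 with the block).

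The other 7 class I genes lay closer to 0 and overlapped between genotypes. Qars, for the glutaminyl enzyme, had 6501, 6493 and 5236 across the wild-type arrays, against 6653, 6305 and 6493 across the CTLA-4 KO arrays, so only wild type replicate 3 stood apart, and its difference was 0.10 ± 0.10. The tyrosyl gene Yars differed by 0.19, the leucyl gene Lars by 0.14 (0.019 without wild type replicate 3), the isoleucyl gene Iars by 0.093, the tryptophanyl gene Wars by 0.050 and the methionyl gene Mars by 0.011. Wars, which interferon is known to induce, had 95% limits of −0.20 and 0.30, and Mars of −0.25 and 0.27, so these probe sets do not settle a direction. The other 3 probe sets of Wars were also positive, at 0.11, 0.20 and 0.23, and in 2 of them (0.20 and 0.23) the CTLA-4 KO arrays all lay above the wild-type arrays, though neither passed in either fit. Cars, for the cysteinyl enzyme, was the only class I gene below 0, at −0.077 ± 0.24. Its CTLA-4 KO arrays spread from 111 (replicate 3) to 217 (replicate 1), and its difference turned positive without the first wild-type array (0.022), and likewise without CTLA-4 KO replicate 3 (0.14).

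The class II synthetases, built on an antiparallel sheet, were read by 9 genes, and every one had a positive difference, from 0.16 to 0.45 with a median of 0.30. Gars, for the glycyl enzyme, had 3426, 3412 and 3174 on the wild-type arrays and 4567, 4406 and 4107 on the CTLA-4 KO arrays. All CTLA-4 KO arrays were higher, by 0.38 ± 0.093, and the pairs differed by 0.41, 0.37 and 0.37 (adjusted p = 0.0793 without and 0.0154 with the block). Aars, for the alanyl enzyme, had 2935, 2556 and 1909 across the wild-type arrays, against 3709, 3076 and 2843 across the CTLA-4 KO arrays. In Aars replicate 3 was the lowest array of both genotypes and wild type replicate 1 overlapped with CTLA-4 KO replicate 3, and the difference was 0.39 ± 0.16 (adjusted p = 0.27 without and 0.0223 with the block). Without wild type replicate 3 it was 0.22. The other probe set of Aars also overlapped between genotypes and differed by 0.29 (adjusted p = 0.0975 with the block).

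The phenylalanyl enzyme is made of a catalytic alpha subunit (Farsa) and a beta subunit (Farsb). Farsa had 554, 448 and 408 on the wild-type arrays and 821, 538 and 602 on the CTLA-4 KO arrays, at 0.45 ± 0.18 (adjusted p = 0.266 without and 0.039 with the block), and at 0.28 without CTLA-4 KO replicate 1. Its other probe sets differed by −0.44, 0.18 and 0.39 and passed in neither fit. Every CTLA-4 KO array lay below every wild-type array in the one at −0.44, and above in the one at 0.39. The mean of all 4 Farsa probe sets differed by 0.15 (adjusted p = 0.672 without the block). Farsb had 4253, 4399 and 3941 across the wild-type arrays, against 5603, 5505 and 5624 across the CTLA-4 KO arrays, with no overlap and a difference of 0.41 ± 0.089 (adjusted p = 0.055 without and 0.0123 with the block). The probe sets of Farsb also differed in sign. A second one was also higher, by 0.45 (adjusted p = 0.0117 with the block), while the other two differed by −0.36 and −0.092, and the mean of all 4 differed by 0.10 (adjusted p = 0.62 without the block).

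The remaining class II genes did not pass in either fit. Hars (histidyl) and Tars (threonyl) had no overlap between genotypes, with differences of 0.30 ± 0.11 and 0.26 ± 0.12. Nars (asparaginyl), Sars (seryl) and Kars (lysyl) differed by 0.19, 0.19 and 0.16 and overlapped. Of the 8 synthetases held in the multisynthetase complex, a cytosolic assembly, 7 were measured (Eprs, Iars, Kars, Lars, Mars, Qars and Rars). Their median was 0.14, only Rars passed with the block, and in replicate pair 2 just 3 of the 7 were higher in CTLA-4 KO, against 7 of 7 in pairs 1 and 3. Of the scaffold genes of that complex, Aimp1 and Aimp2 had differences of 0.27 and 0.37, and Aimp2 rose with the block (adjusted p = 0.0979 without and 0.0207 with it). A further scaffold gene, Eef1e1, is given with the factors.

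**Figure D2:**
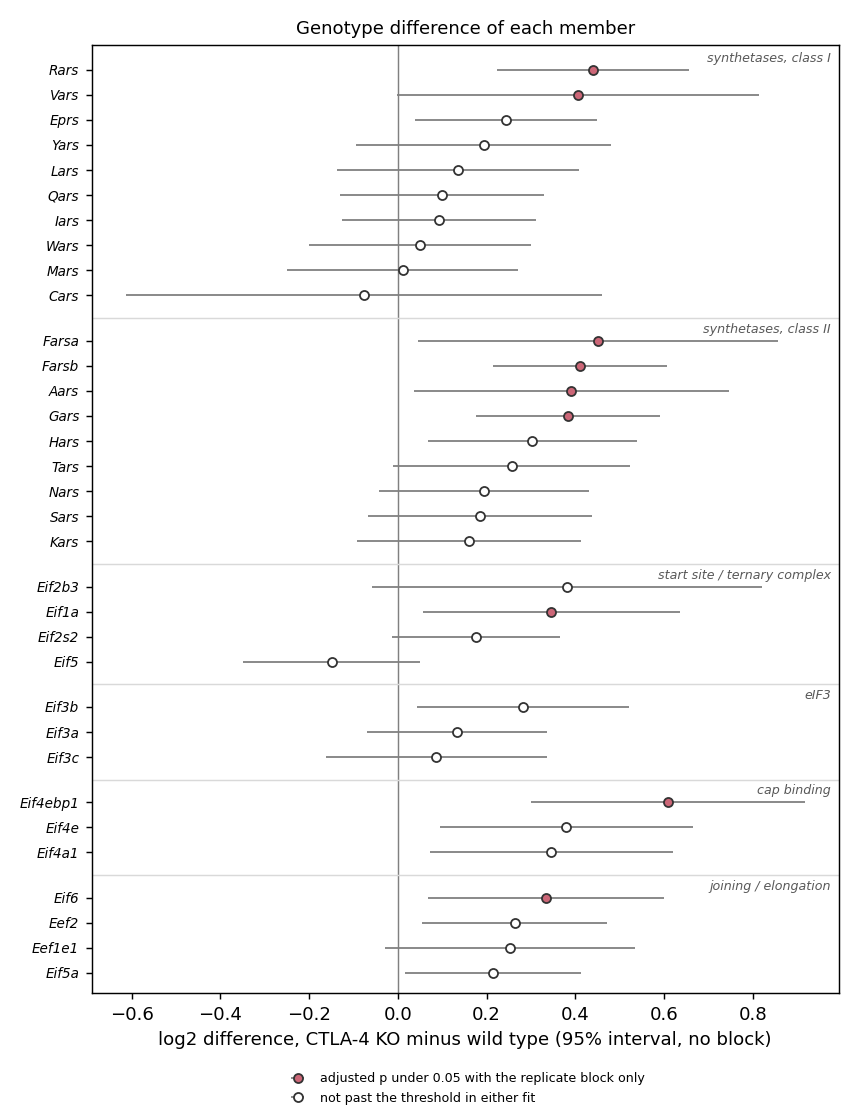
Points are log2 differences, CTLA-4 KO minus wild type, with 95% intervals from the fit without a block, for the 33 genes sorted by role. Filled points mark the 9 genes past the threshold with the replicate block, and no gene passed without it. The intervals of 15 genes lie wholly above 0, as do those of 9.42% of all genes, and those of 18 include it.

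Promoter sequence was searched for the elements of ATF4 and MYC, since both are known regulators of these genes. The table of RefSeq promoters (build GRCm38.p6, 250 bases before to 50 after each transcription start) held 26 of the 37 genes, 13 of each kind. Cars, Hars, Lars, Nars, Rars, Vars, Wars, Eif1a, Eif2b3, Eif4ebp1 and Eif6 were not in it and could not be searched. Among these are Rars, Vars and every factor that rose with the block. The core of the C/EBP-ATF response element was written as TGATGNAA and searched on both strands. It occurred for 5 of 13 synthetases (38.5%; Aars, Gars, Iars, Tars and Yars), for 0 of the 13 factors in the table and for 4.51% of 27025 genes. A gene with several starts counted once if any held the element. Shown are 3 matches that end before the start site, with the element in capitals; each reads as the reverse complement on the strand of the gene.
Aars, chr8:111033705-111033762, plus strand: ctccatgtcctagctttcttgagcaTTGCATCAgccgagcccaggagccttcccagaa
Gars, chr6:55037946-55038000, plus strand: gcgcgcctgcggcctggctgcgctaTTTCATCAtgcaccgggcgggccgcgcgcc
Tars, chr15:11399659-11399698, minus strand: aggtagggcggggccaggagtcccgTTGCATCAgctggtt
The elements begin 112, 30 and 15 bases before the start of Aars, Gars and Tars. Aars has a second match 9 bases after its start, and those of Iars and Yars begin 7 and 3 bases after theirs. The 5 genes with the letters had a median difference of 0.26 (0.093 to 0.39), and the 7 measured synthetases in the table without them 0.19 (0.011 to 0.45). Both ranges overlap widely and 2 genes of each set passed with the block, and a role of ATF4 was not tested. Base composition was not matched between these promoters and all others, and a match of letters is not a measured binding site.

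Among the factors 13 of 14 genes had a positive difference, with a median of 0.27. In 9 of the 14 every CTLA-4 KO array lay above every wild-type array, against 12.2% of all genes. The genes of start site selection and the ternary complex had a median of 0.26. Eif1a encodes a factor that helps the small subunit scan for the start codon. It had 1009.7, 932 and 1133 on the wild-type arrays and 1188, 1256 and 1480.3 on the CTLA-4 KO arrays, without overlap. The difference was 0.35 ± 0.13 and was just past the threshold with the block (adjusted p = 0.237 without and 0.04999 with it). The second probe set of Eif1a overlapped between genotypes and differed by 0.23 (adjusted p = 0.237 with the block). Eif2s2, the beta subunit of eIF2, which carries the initiator tRNA, had 7907, 8497 and 7546 across the wild-type arrays, against 9383, 8910.5 and 8749.8 across the CTLA-4 KO arrays. It also did not overlap, but at 0.18 ± 0.086 it passed in neither fit (adjusted p = 0.357 and 0.237). Eif2b3, a subunit of the nucleotide exchange factor of eIF2, differed by 0.38 ± 0.20 with overlapping arrays.

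Eif5, which triggers GTP hydrolysis by eIF2 at the start codon, was the one factor with a negative difference. It had 7002, 7938 and 7763 on the wild-type arrays and 7010.2, 6447 and 6993 on the CTLA-4 KO arrays, at −0.15 ± 0.090. Of its 5 probe sets 4 were negative and 1 was 0.039, and with the block 1 of them, not the one chosen by the rule, was lower by 0.31 (adjusted p = 0.156 without and 0.0437 with it). In that one and in another, lower by 0.32, every CTLA-4 KO array lay below every wild-type array. Most of the Eif5 probe sets thus had the opposite sign to those of the other factors.

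The eIF3 genes, which encode subunits of the scaffold on the small ribosomal subunit, had the smallest factor median, 0.13. Eif3b had 3173, 2957 and 2940.4 across the wild-type arrays, against 3999.8, 3854 and 3228 across the CTLA-4 KO arrays, without overlap, at 0.28 ± 0.11 (adjusted p = 0.242 without and 0.0734 with the block). Eif3a had 8133, 6826 and 7687 on the wild-type arrays and 8483, 8261 and 8035 on the CTLA-4 KO arrays, where wild type replicate 1 lay above CTLA-4 KO replicate 3, and differed by 0.13 ± 0.092. Eif3c differed by 0.087 ± 0.11, and by −0.033 without wild type replicate 3.

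The cap-binding genes had the highest median of the role groups, 0.38, with no overlap in any of the 3. Eif4ebp1 encodes 4E-BP1, which holds the cap-binding protein eIF4E inactive until mTORC1 phosphorylates it. It had 421, 448 and 465 across the wild-type arrays, against 633, 652 and 782 across the CTLA-4 KO arrays. That was 1.55-fold, the largest ratio among the 33 genes, with a log2 difference of 0.61 ± 0.14 (adjusted p = 0.0668 without and 0.00863 with the block). This probe set, like those of Farsb, Qars, Wars and Eif3c, carries the suffix Affymetrix gives to sets that may cross-hybridise. Among genes of other lists named below, those of Yars2, Phgdh, Shmt2, Trib3 and Atf4 carry it too. The other 2 probe sets of Eif4ebp1 differed by 0.27 and 0.21 (adjusted p = 0.284 and 0.543 with the block). Eif4e, the cap-binding protein itself, had 2522, 1886 and 1938 on the wild-type arrays and 2536, 2777 and 2901 on the CTLA-4 KO arrays. CTLA-4 KO replicate 1 lay only just above wild type replicate 1, and the difference of 0.38 ± 0.13 came from pairs 2 and 3 (0.0078, 0.55 and 0.58 in pairs 1, 2 and 3; adjusted p = 0.191 without and 0.0607 with the block). Eif4a1, the RNA helicase that unwinds the leader of the mRNA, showed the same order of pairs, at 0.051, 0.24 and 0.75, and differed by 0.35 ± 0.12.

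Genes of ribosome joining and elongation had a median of 0.26. Eif6, which keeps the ribosomal subunits apart, had 2985, 3330.3 and 2497 across the wild-type arrays, against 3645, 3943 and 3469 across the CTLA-4 KO arrays, with no overlap, at 0.33 ± 0.12 (adjusted p = 0.217 without and 0.0367 with the block). Without wild type replicate 3 it differed by 0.22, and its second probe set differed by −0.10. Eef2, the translocase of elongation, had 14829.6, 16169.5 and 13708 on the wild-type arrays and 18675, 16160.2 and 18849 on the CTLA-4 KO arrays. The replicate 2 arrays were level and the other pairs differed by 0.33 and 0.46, so the genotypes overlapped, at 0.26 ± 0.094 (adjusted p = 0.214 without and 0.129 with the block). Eif5a, which helps the ribosome past proline-rich stretches and carries the amino acid hypusine, had 18593, 19414 and 18275 across the wild-type arrays, against 21721, 19621 and 24188 across the CTLA-4 KO arrays. It did not overlap and differed by 0.21 ± 0.090, and its other probe set by 0.44 (adjusted p = 0.0274 with the block). Eef1e1 was counted with the factors, though it encodes a scaffold protein of the multisynthetase complex. It differed by 0.25 ± 0.13 and did not overlap.

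The E box CACGTG, which MYC is known to bind, was searched in the same promoters on both strands. It occurred for 6 of 13 factors (46.2%; Eef2, Eif3a, Eif4a1, Eif4e, Eif4g1 and Eif5a), for 4 of 13 synthetases (30.8%; Aars, Farsb, Iars and Tars) and for 8.09% of all genes in the table. The table holds 6 starts for Eif5a and 2 for Eif4e, which gives those genes more sequence to match in. An example is shown for a cap-binding gene, an elongation gene and a synthetase subunit, with the E box in capitals.
Eif4e, chr3:138527179-138527234, plus strand: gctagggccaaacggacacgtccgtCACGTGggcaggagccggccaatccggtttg
Eef2, chr10:81176563-81176618, plus strand: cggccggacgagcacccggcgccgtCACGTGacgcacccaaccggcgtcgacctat
Farsb, chr1:78488906-78488961, minus strand: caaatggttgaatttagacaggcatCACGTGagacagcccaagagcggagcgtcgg
These begin 64, 43 and 39 bases before the start of Eif4e, Eef2 and Farsb. The 5 measured factors with the letters had a median difference of 0.26 (0.13 to 0.38) and the 5 without them 0.18 (−0.15 to 0.28). For synthetases the medians were 0.32 with (n = 4) and 0.19 without (n = 8). The ranges overlapped in both kinds of gene. None of the 10 factors passed in either fit, but the factors that rose with the block (Eif4ebp1, Eif6 and Eif1a) were not in the table.

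Synthetases were then set beside factors, with Eef1e1 counted as a factor. The medians were 0.19 and 0.27, a gap of −0.079. With the block 6 of 19 synthetases and 3 of 14 factors rose, where 5.48% of all genes did. Genes with every CTLA-4 KO array above every wild-type array were 6 of 19 (31.6%) for synthetases and 9 of 14 (64.3%) for factors. The shares were 12.2% of all genes and 14.8% of the brighter set. The sign of the gap depended on the pair: synthetase minus factor medians were 0.11 in pair 1, −0.049 in pair 2 and −0.12 in pair 3. Without wild type replicate 3 the gap was 0.0031, and without CTLA-4 KO replicate 3 it was −0.0049. The gap was thus smaller than its spread between pairs (SD 0.12, n = 3 pairs), and no difference between the kinds of gene was detectable with these arrays. Within the synthetases, with Eprs counted in class I, class II had a median of 0.30 and class I of 0.12. Class II was the higher class in each pair (0.34 and 0.17, 0.27 and 0.11, 0.37 and 0.24). This was seen in the same values that are described here and was not tested.

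**Figure D3:**
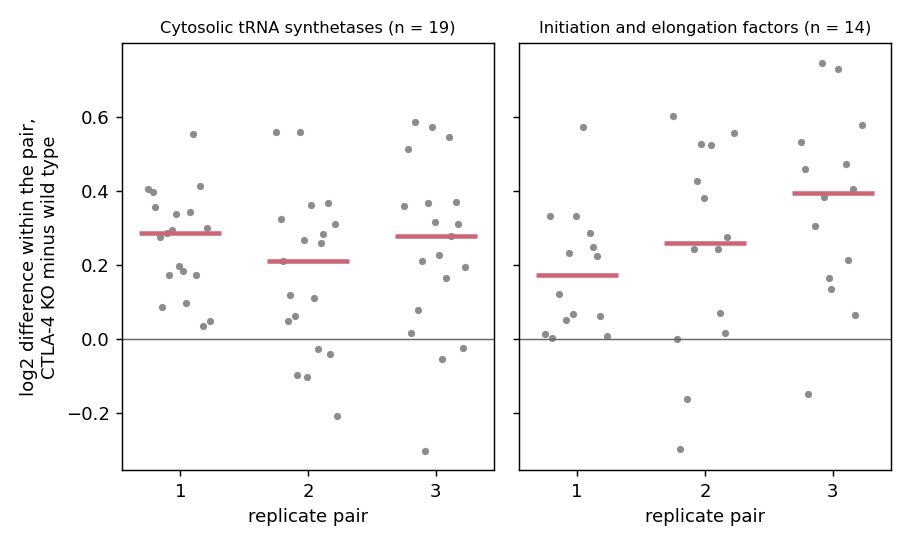
Each point is the log2 difference of 1 gene within a replicate pair, CTLA-4 KO minus wild type, for 19 synthetases and 14 factors, and red bars are medians. The synthetase medians are 0.29, 0.21 and 0.28 and the factor medians 0.17, 0.26 and 0.39 in pairs 1, 2 and 3.

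All 33 genes were higher in CTLA-4 KO in pair 1, 25 in pair 2 and 29 in pair 3, and 23 were higher in every pair, while none was lower in every pair. Pair 2 is the pair with high Xist. In pair 1 the smallest difference was 0.0017 (Eif5) and the largest 0.57 (Eif4ebp1). The arrays of a genotype did not rank alike either. CTLA-4 KO replicate 1 was the highest of its group for 13 of 19 synthetases and for 5 of 14 factors. Wild type replicate 3 was the lowest of its group for 14 of 19 synthetases and 8 of 14 factors, and it had the highest wild-type Actb 5' to 3' ratio (0.584). With the Actb ratio as a term the medians were 0.27 for synthetases and 0.32 for factors, both larger than without it (0.19 and 0.27), and 0 members passed. With that term the whole comparison had 21 probe sets past the threshold in place of 339. In a bulk sample a higher value cannot be told apart from a larger share of cells with more of that RNA, and each array was scaled to 1 trimmed mean, so a rise shared by all RNA would not be seen.

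Other probe sets gave a further reading of the same genes. The 33 genes had 80 single-gene probe sets, 78 of which passed the filter, and 64 of these were positive. Of the 45 that the rule did not choose, 33 were positive and 12 negative, and none passed without the block. With the block 3 of the 45 passed, a share no higher than the 8.66% of all kept probe sets: those of Farsb and Eif5a upward and that of Eif5 downward. Of 21 genes with several probe sets 13 had all of them positive, 7 were mixed (Eprs, Qars, Farsa, Farsb, Eif2s2, Eif5 and Eif6) and Cars had both negative.

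**Figure D4:**
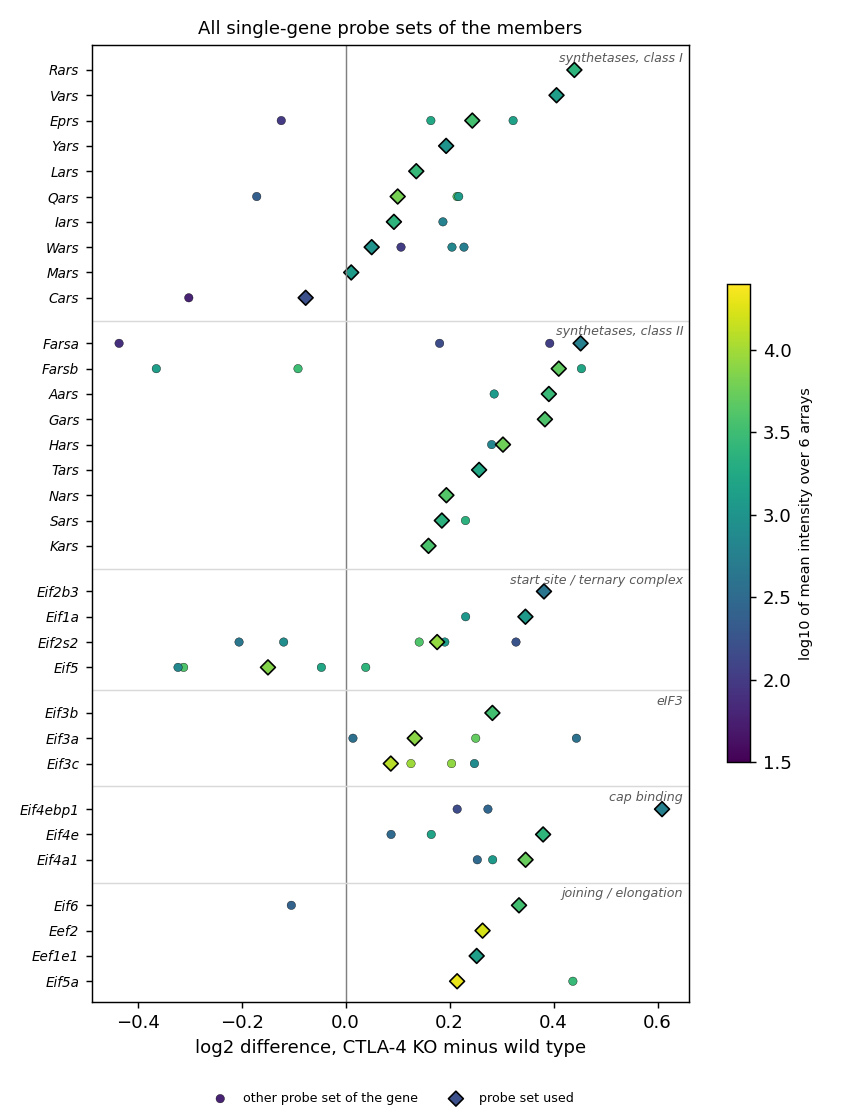
Every single-gene probe set that passed the filter is a point at its log2 difference, CTLA-4 KO minus wild type, coloured by log10 of its mean intensity over 6 arrays. Diamonds are the probe sets used and circles the others. The circles of Farsb lie at −0.36, −0.092 and 0.45 around its diamond at 0.41, and those of Eif4ebp1 at 0.21 and 0.27 lie below its diamond at 0.61.

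Other genes of translation were read from lists beside the members. Of the mitochondrial tRNA synthetases 15 were measured, with a median of 0.071, and none passed without the block. Yars2, the mitochondrial tyrosyl enzyme, had 479, 356 and 343 on the wild-type arrays and 645, 645 and 636 on the CTLA-4 KO arrays and rose with the block (0.70 ± 0.16; adjusted p = 0.0606 without and 0.0073 with it). Of 29 other initiation factor genes 23 were positive, with a median of 0.11. In that list Eif4e2 (0.36), a cap-binding relative of eIF4E, and Eif2b1 (0.35), another exchange factor subunit, rose with the block (adjusted p = 0.0304 and 0.044). Eif4e3 (−0.65), a further relative of eIF4E, fell with the block (adjusted p = 0.0305). With the block 5.48% of all genes rose and 3.44% fell. A rise of 1 in 15 mitochondrial genes, or 2 rises and 1 fall in 29, is close to those shares. All 8 other elongation and termination genes were positive, with a median of 0.23, and Abce1, a ribosome recycling factor, rose with the block (0.35; adjusted p = 0.0446). Eef1a1, the partner of charged tRNAs, did not share in it, at 0.0063 ± 0.12.

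Of 17 mTORC1 and MYC genes 5 were positive, where 50.3% of all genes were, and the median was −0.15. In 5 of the 17 every CTLA-4 KO array lay below every wild-type array and in 2 above, against 10.6% and 12.2% of all genes. The list mixes activators and inhibitors of these pathways, so its median gives no direction for them. Myc had 1064, 1102 and 910.4 across the wild-type arrays, against 1528, 1292 and 1285 across the CTLA-4 KO arrays and rose with the block (0.41 ± 0.13; adjusted p = 0.152 without and 0.0282 with it). Mxd4, which encodes a repressor that competes with MYC for its partner MAX, fell with it (−0.43 ± 0.11; adjusted p = 0.0974 without and 0.018 with it). The next smallest p values of the list were those of Mtor (−0.28) and of Max itself (−0.42). In both genes every CTLA-4 KO array lay below every wild-type array, but neither passed in either fit. Of 21 amino acid response genes 15 were positive, with differences from −0.30 to 1.05 and a median of 0.12. In 6 of them every CTLA-4 KO array lay above every wild-type array and in 1 below, against 12.2% and 10.6% of all genes. Without the block 2 rose, beside 1.19% of all genes. They were Asns, for asparagine synthetase (1.05 ± 0.17; adjusted p = 0.0173), and Phgdh, for the entry enzyme of serine synthesis. Phgdh had 4372, 4427 and 3856 on the wild-type arrays and 6920.1, 6423 and 5971 on the CTLA-4 KO arrays (0.61 ± 0.099; adjusted p = 0.0193). The serine pathway genes Psph (0.53) and Shmt2 (0.52) rose with the block (adjusted p = 0.0161 and 0.014), as did the stress-induced genes Trib3 and Ddit4. Trib3 differed by 0.72 ± 0.21 (adjusted p = 0.128 without and 0.0328 with the block). Ddit4 ranged from 702 to 3244 over the wild-type arrays and differed by 0.66 ± 0.43 (adjusted p = 0.504 without and 0.0409 with the block), with pair differences of 1.37, 0.59 and 0.017. Psat1 of the serine pathway differed by 0.11 and Atf4 itself by 0.017. None of the 6 genes for kinases of eIF2 and subunits of its phosphatases passed in either fit, with a median of −0.055, and 1 of them, Eif2ak2 (PKR, the kinase that senses double-stranded RNA), had an unadjusted p under 0.05 (−0.39). The hypusination enzymes Dhps and Dohh, which modify eIF5A, differed by 0.23 and 0.55 and passed in neither fit.

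**Figure D5:**
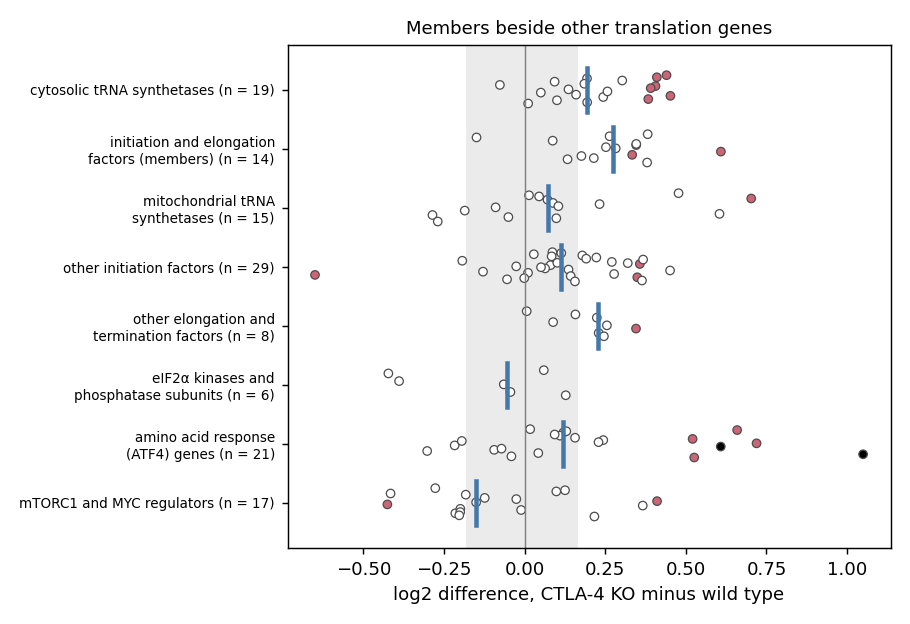
Each point is 1 gene at its log2 difference, CTLA-4 KO minus wild type; blue bars are list medians and the grey band spans the middle of all 11990 genes, from the 25th to the 75th percentile (−0.18 to 0.16). Black points passed without a block, red points with the replicate block only, and open points in neither fit. The medians of the 19 synthetases (0.19), the 14 factors (0.27) and the other elongation and termination factors (0.23) lie right of the band. Those of the other initiation factors (0.11), the amino acid response genes (0.12) and the mitochondrial synthetases (0.071) lie inside it. So do those of the eIF2 kinases and phosphatase subunits (−0.055) and the mTORC1 and MYC regulators (−0.15).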

How the data were processed

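The authors deposited 1 table of linear intensity values, with 45101 probe sets as rows and a column for each of 6 arrays. MAS5 and Partek are named, with no versions, per the submitters' processing notes. Each array of the deposited intensity table has a trimmed mean of 500.003 (highest and lowest 2% left out). The sources used here do not state how background was treated. All per-sample columns were used.

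Values were turned into log2(intensity + 16), 64 control probe sets were left out, and probe sets whose mean log2 value reached the 40th percentile (an intensity of 35.4) were kept, which left 27022. Differences were fitted with limma 3.58.1 in R 4.3.3 (eBayes with an intensity trend, no block), two-sided, adjusted over all kept probe sets. The fit was tested on simulated data. The means ± SE in the text come from this fit. Array weights, filters, scaling, probe set choice, an Actb ratio term and leaving out arrays were alternatives. The titles give both genotypes replicate numbers 1, 2 and 3. Arrays with the same number deviated together (r = 0.371, 0.24 and 0.254, all above 0.1), and on that basis replicate number was treated as pairing them.

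Gene names came from the array annotation, updated through gene IDs to the RefSeq table of GRCm38.p6 (1 gene for 34958 probe sets, several for 932, none for 9211). Array values per replicate were given for genes that passed with or without the block, the 2 smallest p of each role, and Qars and Eif5a, whose probe sets had the highest signal of their kind. Of other lists, genes past the threshold without the block and at most the 4 with the smallest p were named. Array values of Eif5, and the names Eef1a1, Psat1, Atf4, Trib3 and Ddit4, were added after their values were seen. The members, lists, tests and this rule were chosen with earlier results of these data known.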

Additional observations from a re-analysis of the deposited data

How the results depend on the processing

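Of 692 refits of single genes 664 kept their direction and their side of the threshold, 18 came past it and 10 changed sign, the last all in 5 genes that passed under no alternative. As no gene passed in the main fit, no call could be lost, and keeping a side mostly meant staying uncalled. Apart from the replicate block itself, the refits had no block, so the 9 rises with the block were not refitted. With array weights Mars was −0.012, and with the Actb term Cars was 0.029 and Wars −0.0038. Leaving out 1 array at a time, Mars ran from −0.051 to 0.078 (below 0 without wild type replicate 3, at −0.0012 without CTLA-4 KO replicate 1 and −0.020 without replicate 3), Cars from −0.30 to 0.14 (above 0 without CTLA-4 KO replicate 3, and 0.022 without wild type replicate 1), Qars from −0.0033 to 0.15 and Eif3c from −0.033 to 0.16 (both below 0 without wild type replicate 3). Leaving out 1 array moved 20 of the 33 genes by over 1.5 times, among them 3 of the 9 that rose with the block (Aars, Farsa and Eif6); 12 did so without wild type replicate 3, and 11 of these went down. Synthetases past the threshold numbered 0 without the block, 6 with it, 2 with the 60th percentile filter, array weights or mean probe sets, 1 with median centring or quantile normalization and 3 at an adjusted p of 0.1. Factors numbered 0, then 3 with the replicate block, 1 with median centring and 1 at 0.1. Leaving out any array in the fit without the block gave 0 of either, as with all arrays. The synthetase median was 0.25 with median centring, 0.27 with the Actb term, 0.25 in replicates 1 and 3, 0.16 with mean probe sets and 0.19 to 0.24 when an array was left out. Factors had 0.22 to 0.32 there, and the gap ran from −0.13 to 0.0031, the last without wild type replicate 3. Median centring moved the median of all genes from 0.0018 to 0.060. Probe sets past the threshold were 339, and 2341 with the block, 111 with no filter, 20 without the trend, 521 with array weights, 21 with the Actb term, 46 in replicates 1 and 3, 45 at 0.01, 832 at 0.1, and 62 to 217 without an array. Without moderation limma called 0. The count cannot be given for mean probe sets. The element TGATGNAA was held by 3 synthetases in the 250 bases before the start alone. Taking linear means for the dimness filter and the probe set choice, an alternative chosen after seeing the data, gave 345 probe sets, 0 of either kind of gene and the same medians. The cause of these shifts was not tested.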
